A study of Mus musculus with 4 samples.

Results

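The genes described here are 41 nuclear receptor genes, chosen by family membership as all the listed mouse receptors other than the Nr4a genes and Vdr, out of 22225 protein-coding genes in the annotation. All 41 were found there. They were scored for phospho-CREB occupancy in MC3T3-E1 cells, an established mouse pre-osteoblast line grown in alpha MEM with 10% serum. The cells had received 100 nM forskolin, which activates adenylyl cyclase and raises cAMP, or the DMSO vehicle, each for 1 h. The antibody recognises CREB phosphorylated at the serine modified by protein kinase A. Each treatment had 2 chromatin immunoprecipitation libraries, which the labels call biological replicates, and the question was where phospho-CREB is found once cAMP signalling is on. The series concerns parathyroid hormone, which signals through cAMP in bone cells, but the agent here was forskolin, at a single dose and time in a single line. Peaks show occupancy of chromatin and not the expression of the gene nearby.

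Nuclear receptors are transcription factors with a shared DNA-binding domain, and many are switched by small lipophilic ligands such as thyroid hormone, retinoids, steroids, fatty acids and oxysterols. Thyroid hormone, retinoic acid, PPAR and several sensor receptors bind DNA as heterodimers with a retinoid X receptor, while steroid receptors act mostly as homodimers. CREB binds the cAMP response element (CRE), most often in promoters, and its phosphorylation allows it to recruit the coactivators CBP and p300. Osteoblasts respond to glucocorticoids, oestrogens, thyroid hormone and retinoids, and the induction of Nr4a receptors by cAMP is well known in these cells, which is why the remaining receptors were examined apart from them.

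The lists held 14686 and 10180 peaks for the vehicle libraries and 25566 and 19371 for the forskolin libraries. Peaks sharing at least 1 bp were merged into 28335 regions, of which 8930 had a peak in all 4 libraries. A region was called forskolin-only when both forskolin lists and neither vehicle list had a peak there (5187 regions, 18.3%), and vehicle-only in the reverse case (125 regions, 0.441%). The forskolin lists are longer, which by itself raises the first class and lowers the second, and how far list length sets these classes cannot be told apart from treatment. Each peak carries the authors' score, used here only as a percentile within its own list (100 is the highest score). Percentiles from lists of different lengths show no change between treatments. For regions of all 4 libraries, scores were therefore also ranked over the same 8930 regions, and the forskolin minus vehicle difference in mean rank is called the shared-rank difference. Scores are tied most coarsely in forskolin replicate 2, with 21 distinct values in the lower part of the list against 33 to 51 in the others. Each distance is that of a region's centre from the closest transcription start site (TSS) of the gene, over all its transcripts, with negative values upstream. Coordinates are in mouse build mm9. As a look at the labelled line, 10 of 10 pre-osteoblast marker genes had a region of some library within 10 kb, where 55.2% of all genes had one. The counts were 3 of 5 for adipocyte, 2 of 4 for haematopoietic or osteoclast and 0 of 5 for skeletal muscle markers. The other windows did not show this order. Within 1 kb it was 3 of 10 pre-osteoblast markers (44.5% of all genes), and within 100 kb 5 of 5 adipocyte and 4 of 5 muscle markers also had a region. Occupancy therefore checks the cell type only weakly.

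The CRE core, TGACG, stood in 4 of the 7 forskolin-only regions within 10 kb of a receptor TSS (57.1%, against 37.1% of all forskolin-only regions that close to a gene). It also stood in the Rora region with the highest shared-rank difference of any receptor. These 5 sequences are shown first, each as a short window about the match, read 5′ to 3′ on the strand of the gene, with TGACG or its complement CGTCA in capitals. They lie at chr9:69186986-69187086 and chr9:69188428-69188528 (both plus strand), chr16:38286024-38286124 and chr13:78342832-78342932 (both minus strand) and chr2:27527655-27527755 (plus strand).
Rora -7997 bp: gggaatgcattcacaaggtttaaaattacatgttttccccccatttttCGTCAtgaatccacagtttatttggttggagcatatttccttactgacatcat
Rora -6569 bp: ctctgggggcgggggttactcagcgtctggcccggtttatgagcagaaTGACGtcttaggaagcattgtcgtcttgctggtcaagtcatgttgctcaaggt
Nr1i2 +8829 bp: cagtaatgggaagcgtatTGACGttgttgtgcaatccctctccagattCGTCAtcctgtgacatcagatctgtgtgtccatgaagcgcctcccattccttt
Nr2f1 -3855 bp: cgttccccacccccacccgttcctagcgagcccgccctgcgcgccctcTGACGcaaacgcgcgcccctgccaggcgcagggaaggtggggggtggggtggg
Rxra -4231 bp: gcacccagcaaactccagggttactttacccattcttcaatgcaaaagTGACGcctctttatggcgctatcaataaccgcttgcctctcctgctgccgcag

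The Nr1d1 promoter, the receptor promoter with the lowest shared-rank difference, and the forskolin-only region at Nr2f2 held no CRE core within 100 bp of their centres. Other receptor regions went the other way. Those of Rora at 151 bp and Rara at -695 bp ranked higher under forskolin and held no core. The promoter regions of Nr2c1 and Nr2c2 ranked lower and held one. Windows at their centres, on the minus strand at chr11:98636708-98636808 and chr7:77506448-77506548, are in lower case throughout.
Nr1d1 -111 bp: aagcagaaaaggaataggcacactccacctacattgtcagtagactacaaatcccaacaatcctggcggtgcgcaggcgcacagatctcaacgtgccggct
Nr2f2 -1019 bp: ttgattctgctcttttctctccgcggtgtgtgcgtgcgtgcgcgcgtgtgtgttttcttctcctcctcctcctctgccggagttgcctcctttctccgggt

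The next set shows the full palindromic CRE, TGACGTCA, in capitals in regions near receptor genes. These are Rxra at chr2:27630080-27630180 and chr2:27634941-27635041, Ppara at chr15:85500073-85500173 and Ppard at chr17:28358459-28358559 (plus strand), with Nr1d1 at chr11:98647211-98647311 and Nr6a1 at chr2:38806056-38806156 (minus strand) and Nr0b2 at chr4:133024112-133024212 (plus strand). The Ppard window holds 2 copies.
Rxra +34368 bp: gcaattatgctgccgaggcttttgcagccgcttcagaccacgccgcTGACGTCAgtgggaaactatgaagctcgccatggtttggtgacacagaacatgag
Rxra +39279 bp: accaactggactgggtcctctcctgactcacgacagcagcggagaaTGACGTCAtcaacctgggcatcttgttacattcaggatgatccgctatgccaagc
Ppara -65293 bp: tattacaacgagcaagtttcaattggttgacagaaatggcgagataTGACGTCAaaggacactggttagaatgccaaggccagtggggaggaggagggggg
Ppard -11237 bp: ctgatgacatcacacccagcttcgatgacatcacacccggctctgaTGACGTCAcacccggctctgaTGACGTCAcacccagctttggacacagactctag
Nr1d1 -10630 bp: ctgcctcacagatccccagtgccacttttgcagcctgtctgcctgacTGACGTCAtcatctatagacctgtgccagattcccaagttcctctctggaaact
Nr6a1 -22905 bp: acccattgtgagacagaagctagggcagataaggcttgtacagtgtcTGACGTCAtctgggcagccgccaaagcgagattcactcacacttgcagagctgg
Nr0b2 -85174 bp: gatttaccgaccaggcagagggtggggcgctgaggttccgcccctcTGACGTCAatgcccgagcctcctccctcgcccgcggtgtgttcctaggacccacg

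The promoter regions of all libraries at Rara, Nr1h3 and Nr3c2 lie outside annotated untranslated exons and held no CRE core. Promoters occupied in every library that did hold one are shown by 3 receptors whose centres lie outside annotated untranslated exons, again with the CRE core in capitals: Nr1d2 (chr14:19071082-19071182, minus strand), Nr2c1 (chr10:93610603-93610703, plus strand) and Nr2c2 (chr6:92042208-92042308, plus strand).
Nr1d2 +400 bp: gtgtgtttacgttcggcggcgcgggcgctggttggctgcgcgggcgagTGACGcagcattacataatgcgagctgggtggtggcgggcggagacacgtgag
Nr2c1 -138 bp: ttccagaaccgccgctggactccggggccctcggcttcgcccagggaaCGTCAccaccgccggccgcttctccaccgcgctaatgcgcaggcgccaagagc
Nr2c2 -110 bp: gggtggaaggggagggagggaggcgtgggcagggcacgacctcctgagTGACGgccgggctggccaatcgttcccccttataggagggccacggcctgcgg

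Phospho-CREB occupied the promoters of 14 of the 41 receptor genes in all 4 libraries, and none had a forskolin-only region there. The 14 were Rara, Rxrb, Ppard, Nr1h2, Nr1h3, Nr1d1, Nr1d2, Rora, Esr1, Nr3c1, Nr3c2, Nr2c1, Nr2c2 and Nr6a1. They made 34.1% of the receptors, near the 30.4% of all protein-coding genes with such a region within 1 kb. Forskolin-only regions within 1 kb were found at 0 of 41 receptors against 3.11% of all genes. Both counts depend on the setting. The 14 was 8 with the top 50% of each list (18.7% of all genes), 9 in lists of equal length (22.5%) and 9 with 1 TSS a gene (28.6%). The 0 was 2 with the top 50% (2.36%), 1 by nearest edge (3.36%), 1 without either vehicle replicate (7.68% and 3.86%) and 2 without either forskolin replicate (4.88% and 6.88%). A region of any library lay within 1 kb of 17 receptors (41.5%, against 44.5%), within 10 kb of 25 (60.98%, against 55.2%) and within 100 kb of 32 (78.0%, against 79.5%). Within 10 kb, 17 receptors had a region of all 4 libraries (41.5%, against 37.5% of all genes) and 5 had a forskolin-only region (12.2%, against 8.88%): Rora, Rxra, Nr1i2, Nr2f1 and Nr2f2. Within 100 kb the counts were 29 (70.7%, against 67.1%) and 17 (41.5%, against 39.7%). Vehicle-only regions lay near 0 receptors within 1 kb (0.247% of all genes) and 0 within 10 kb (0.414%). At each distance the receptors' shares lie near those of all genes. The count of 5 rested on all 4 lists: without vehicle replicate 1 it was 8 (against 15.6% of all genes) and without forskolin replicate 2 it was 9 (against 17.6%).

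**Figure D1:**
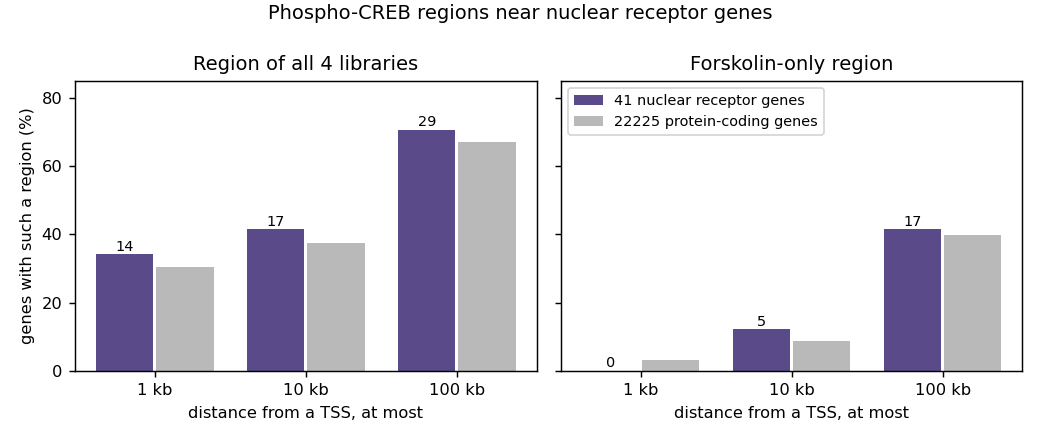
Percentage of the 41 nuclear receptor genes (purple, with the number of genes above each bar) and of all 22225 protein-coding genes (grey) with a region of all 4 libraries (left) or a forskolin-only region (right) within 1, 10 and 100 kb of a TSS. The purple bars follow the grey ones at each distance, and no receptor had a forskolin-only region within 1 kb.

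Counted library by library, 21 and 19 receptors had a peak within 10 kb in the vehicle lists and 25 and 24 in the forskolin lists. Every forskolin count was above every vehicle count. Vehicle libraries averaged 20 ± 1.41 receptors and forskolin libraries 24.5 ± 0.707 (SD, n = 2 each), a difference of 4.5 genes with an exact two-sided permutation p = 0.333, the smallest value 2 libraries against 2 can give. Over all genes the counts were 10390 and 8825 against 12056 and 10932, in the same order of libraries as the lengths of the lists and the receptor counts. With lists cut to equal length the difference was -1.0 (exact permutation p = 1). At receptor promoters there was almost no such spread, with 16 receptors in each vehicle list (39.0%) and 17 in each forskolin list (41.5%). Over all genes the shares within 1 kb did spread, at 38.65% and 32.4% under vehicle and 43.27% and 39.24% under forskolin.

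**Figure D2:**
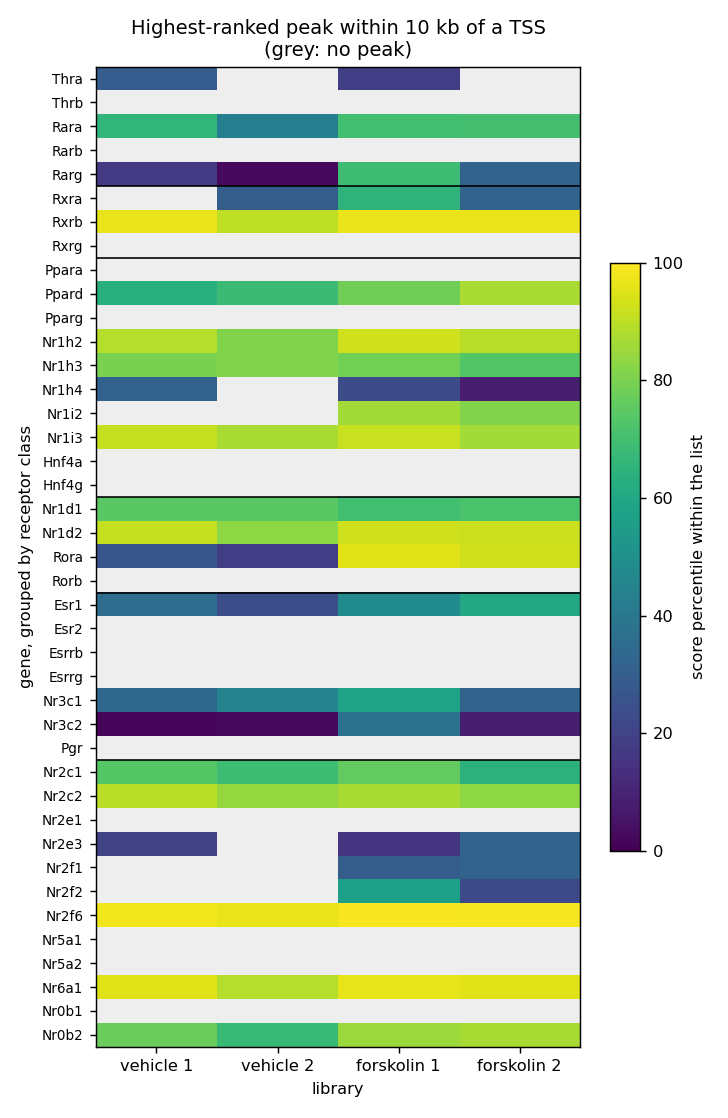
Percentile of the highest-ranked phospho-CREB peak within 10 kb of a TSS of each receptor gene (rows, grouped by receptor class) in each library (columns), with grey where the list has no peak. Rora stands low in both vehicle lists and near the top of both forskolin lists, Nr1i2, Nr2f1 and Nr2f2 have colour in the forskolin columns alone, and 16 genes are grey throughout.

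A region of some library lay within 100 kb of 32 receptors (79.5% of all genes had one), and 9 receptors had no region of any library within 100 kb: Thrb, Rarb, Rxrg, Rorb, Hnf4g, Esrrg, Pgr, Nr5a2 and Nr0b1. The nearest region lay between 110666 bp (Rorb) and 1456355 bp (Hnf4g) away. No other protein-coding gene lay within 100 kb of 6 of them, and 1 lay near each of Rxrg, Pgr and Nr0b1. Pparg, Rxra, Nr2f1, Esrrb and Nr3c2 also had no other gene within 100 kb and had between 1 and 17 regions there. Whether lack of neighbours goes with lack of regions was not tested.

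Among the thyroid hormone and retinoic acid receptors, Rarg on chromosome 15 had the most regions within 100 kb (16), followed by Thra (12) and Rara (10), which share a locus on chromosome 11 with Nr1d1. Rara alone had a promoter region of all 4 libraries (1 of 5, against 30.4% of all genes). Rara, the retinoic acid receptor alpha gene, had an intronic region at -695 bp (chromosome 11, 98820845 to 98821217) with percentiles of 45.1 and 26.9 under vehicle and 69.8 and 70.4 under forskolin. Over the shared regions it ranked at 23.5 and 22.8 under vehicle and at 36.7 and 49.6 under forskolin, a shared-rank difference of 20.02, with no overlap of the groups. Another region of all 4 libraries at -8773 bp went the other way, with a difference of -10.4, although its groups overlapped.

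Rarg, the retinoic acid receptor gamma gene, had 5 regions within 10 kb and none of them recurred in both libraries of a treatment. At -547 bp (chromosome 15, 102088254 to 102088736, intergenic) there was a peak in vehicle replicate 2 at percentile 2.43 and in forskolin replicate 1 at 16.7. The other 4 were called in 1 library each, the highest at -13 bp in forskolin replicate 1 at percentile 69.0. Rarg also had 3 forskolin-only regions between 10 and 100 kb. All were nearer to other genes, among them regions at 10510 bp (percentiles 82.6 and 67.5) and 12690 bp (81.5 and 71.8) that lay nearest to the integrin gene Itgb7. Thra, the thyroid hormone receptor alpha gene, had only single-library peaks within 10 kb, in vehicle replicate 1 at -2745 bp and in forskolin replicate 1 at 1289 bp. Its 12 regions within 100 kb were all shared with Nr1d1. On chromosome 14, where the paralogues Thrb, Rarb and Nr1d2 lie, only Nr1d2 had regions within 100 kb.

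The retinoid X receptors, the common heterodimer partners, gave 3 different pictures. Rxrb had a promoter region at -12 bp (chromosome 17, 34168549 to 34168941, intergenic) at percentiles of 90.7 and 58.0 under vehicle and 87.1 and 86.8 under forskolin. The forskolin values lay between the vehicle values, and the start of Slc39a7 lies within 1 kb as well. Rxrg had no region within 100 kb.

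Rxra had no promoter region of all 4 libraries and the most forskolin-only regions of any receptor, 7 of its 17 regions within 100 kb. Near a downstream TSS at 265 bp (chromosome 2, 27595821 to 27596152, exonic) the lists had a peak at percentile 29.4 in vehicle replicate 2, 40.5 in forskolin replicate 1 and 17.1 in forskolin replicate 2, and none in vehicle replicate 1. Another 3 regions within 10 kb were forskolin-only. They had forskolin percentiles of 39.4 and 27.2 at -9663 bp (27522132 to 27522463, intergenic), of 64.9 and 32.0 at -4231 bp (27527521 to 27527938, intergenic, the sequence with the CRE core above) and of 13.2 and 22.2 at 5013 bp (27570951 to 27571282, intronic). Most of these are low or middling scores, and none of the 3 remained forskolin-only in the top 50% of each list or in lists of equal length.

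The highest scores at Rxra lay 3′ of the gene, which spans 86518 bp. The region at 34368 bp from a TSS, with a full CRE, stood at percentiles of 80.7 and 79.0 under vehicle and 96.0 and 94.8 under forskolin, with a shared-rank difference of 16.7. Another full CRE at 39279 bp was called in vehicle replicate 2 at percentile 52.2 and in the forskolin lists at 89.2 and 90.5. The farthest upstream region, at -69493 bp, was forskolin-only at percentiles of 83.9 and 75.3. Rxra was the nearest gene to all 3, while the forskolin-only regions at 73261, 78727 and 94857 bp were nearest to the collagen gene Col5a1.

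The clock receptors comprise the repressors Nr1d1 and Nr1d2 (REV-ERB alpha and beta) and the activators Rora and Rorb, which bind the same elements and act on the transcription of the core clock gene Bmal1. Promoters of Nr1d1, Nr1d2 and Rora were occupied in all 4 libraries (3 of 4 genes, against 30.4% of all genes), and Rorb had no region within 100 kb. Rora and Nr1d1 held the extremes of the shared-rank difference among the receptors' regions within 10 kb.

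Rora, the ROR alpha gene, spans 734461 bp of chromosome 9 with 6 start sites, and its regions sat around the downstream ones. At -7997 bp from the nearest of these (69186882 to 69187231, intronic, CRE core) the deposited scores were 8.4 and 7.4 under vehicle and 82.1 and 53.0 under forskolin. These correspond to percentiles of 26.6 and 18.4 against 95.5 and 92.9. Over the shared regions it ranked at 10.1 and 15.1 under vehicle and at 88.4 and 85.8 under forskolin. The difference of 74.5 was exceeded by 32 of the 8930 shared regions, and it stayed between 69.7 and 75.2 when any library was left out.

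A forskolin-only region lay beside it at -6569 bp (69188329 to 69188639, intronic, CRE core), with scores of 50.6 and 31.7 and percentiles of 89.95 and 83.5. It had the highest lower percentile of all forskolin-only regions within 100 kb of a receptor. At an internal promoter, 151 bp from its TSS (69137473 to 69137808, untranslated exon), percentiles were 14.5 and 4.94 under vehicle and 71.7 and 53.3 under forskolin, with a shared-rank difference of 29.99 that 632 shared regions exceeded. The groups did not overlap at either shared region. The region at 151 bp was also not one of all 4 libraries in the top 50% of each list or in lists of equal length. With the top 50%, Rora had 3 forskolin-only regions within 10 kb instead of 1. The most upstream TSS had a peak in forskolin replicate 1 alone, at percentile 33.6. Rora had 15 regions within 100 kb, 3 of all libraries and 5 forskolin-only. The remaining region of all libraries, at 50681 bp, lay nearest to Narg2, held a full CRE and ranked alike under both treatments, with percentiles of 91.9, 92.3, 95.2 and 94.7.

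**Figure D3:**
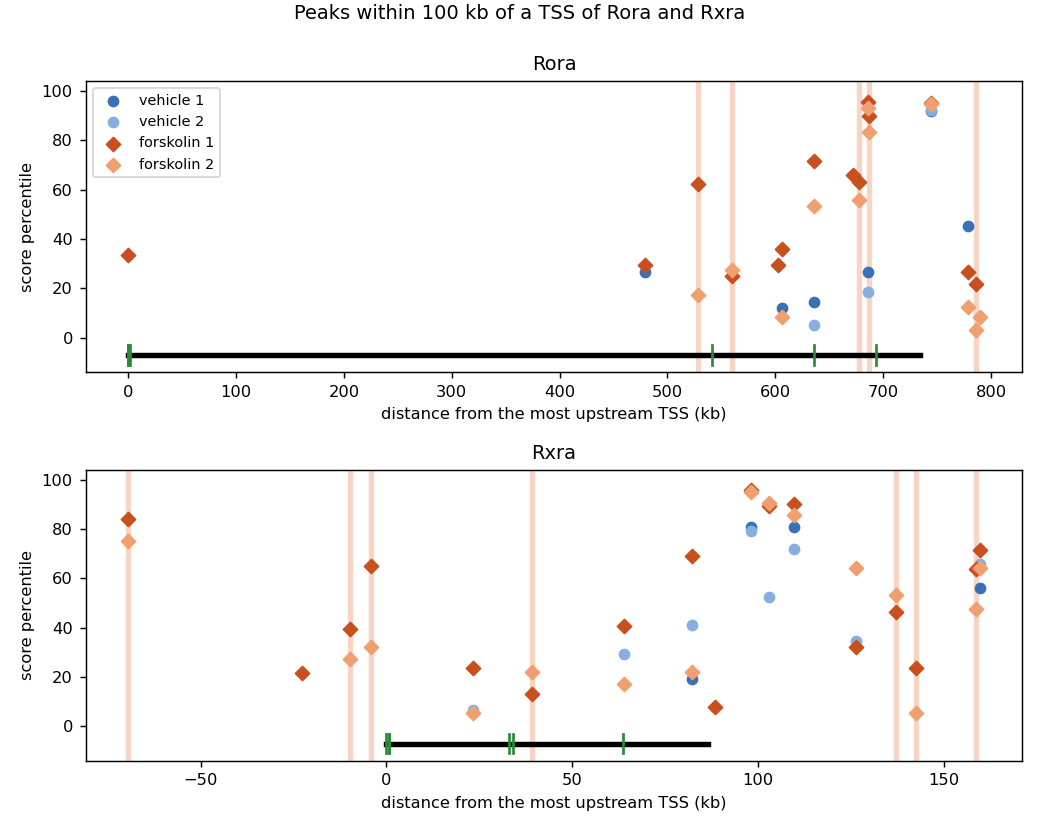
Score percentile of each peak within 100 kb of a TSS of Rora (top) and Rxra (bottom) against distance from the most upstream TSS in kb. The black bar is the gene, green ticks are start sites, blue circles vehicle and orange diamonds forskolin libraries, and pale bands mark forskolin-only regions. At Rora the forskolin diamonds stand far above the vehicle circles around the downstream start sites, and at Rxra the highest scores lie beyond the 3′ end of the gene.

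Nr1d1 showed the opposite order at its promoter. The region at -111 bp (chromosome 11, 98636554 to 98636962, intergenic) had percentiles of 74.3 and 62.6 under vehicle and 64.9 and 32.0 under forskolin. Over the shared regions it ranked at 59.5 and 58.6 under vehicle and 28.8 and 12.4 under forskolin, so the groups did not overlap. The difference of -38.5 was exceeded by 8891 of the 8930 regions and ran from -46.7 to -29.4 when a library was left out. Its region of all libraries at -8134 bp had a difference of -20.8, again without overlap. A full CRE at -10630 bp was called in vehicle replicate 2 at percentile 73.9 and in the forskolin lists at 83.4 and 85.1, and was nearer to Msl1. Nr1d2 had an intronic promoter region at 400 bp (chromosome 14, 19070965 to 19071325) at percentiles of 91.3 and 83.1 under vehicle and 92.7 and 92.2 under forskolin. It was among the highest in every list, with a shared-rank difference of -0.32.

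The lipid, bile acid and xenobiotic sensors had promoter regions of all 4 libraries at 3 of 10 genes, which is the share of all genes (30.4%). Ppard, the broadly expressed PPAR delta gene, had a promoter region at -76 bp (chromosome 17, 28369408 to 28369839, intergenic) at percentiles of 63.5 and 68.3 under vehicle and 78.2 and 87.2 under forskolin. The shared ranks of the groups overlapped there, with a difference of 9.22. Nr1h2, which encodes the oxysterol receptor LXR beta, was occupied at -11 bp (chromosome 7, 51809128 to 51809481, untranslated exon) at percentiles of 89.0 and 81.2 against 92.7 and 89.2.

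Nr1h3, which encodes LXR alpha, had an exonic region at 29 bp (chromosome 2, 91042754 to 91043171) at percentiles of 79.7 and 81.2 under vehicle and 78.8 and 73.1 under forskolin. Its shared ranks were lower in both forskolin lists, by 19.9 on average (52.8 and 53.7 against 67.5 and 78.9), while Nr1h2 differed by -0.16. A TSS of Acp2 lies within 1 kb of the Nr1h3 region. Nr1i2, the xenobiotic receptor PXR, had a forskolin-only region at 8829 bp (chromosome 16, 38285926 to 38286237, intronic) at percentiles of 86.2 and 81.1, with the 2 CRE cores shown above. It was the nearest gene and had no vehicle peak within 10 kb. A forskolin-only region within 10 kb of Nr1i2 remained in every alternative that counted such regions for this gene.

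Ppara and Pparg had no region within 10 kb. Ppara, the fatty acid receptor of oxidative tissues, had a full CRE at -65293 bp at percentiles of 95.3 and 94.6 under vehicle and 97.2 and 96.5 under forskolin, high in every list. It also held the only vehicle-only region near a receptor, 1 of 41 genes against 2.07% of all genes within 100 kb. That region (chromosome 15, 85642106 to 85642409, percentiles of 12.1 and 15.9) lay beside a forskolin-only region (85641514 to 85641870, percentiles of 42.7 and 73.1), and regions joined across 500 bp left no vehicle-only region. The count was 5 without vehicle replicate 2 (12.1% of all genes) and 3 without forskolin replicate 1 (7.60% of all genes). Pparg, the adipocyte master regulator, had a forskolin-only region at -27991 bp at percentiles of 71.0 and 44.1. Nr1h4, the bile acid receptor FXR, had a low-scoring region of 3 libraries at 2259 bp, and Hnf4a had none within 10 kb. The region of all libraries at 8198 bp from Nr1i3, the constitutive androstane receptor gene, lay at the start of Tomm40l.

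The steroid receptors Esr1, Nr3c1 and Nr3c2 had promoter regions in all 4 libraries (3 of 7, against 30.4% of all genes). A forskolin-only region within 10 kb was found at 0 of the 7 genes of this class (8.88% of all genes had one). Esr1, the oestrogen receptor alpha gene, had an intronic region at 748 bp (chromosome 10, 5733508 to 5733986) at percentiles of 35.6 and 24.2 under vehicle and 48.1 and 60.4 under forskolin. Nr3c1, the glucocorticoid receptor gene, had one at -464 bp (chromosome 18, 39651247 to 39651592, intergenic) at 33.3 and 44.8 against 57.8 and 32.0. Nr3c2, the mineralocorticoid receptor gene, had one at -173 bp (chromosome 8, 79425844 to 79426185, intronic) at 1.70 and 2.43 against 37.2 and 8.46. All 3 were low to middling in every list. Shared ranks overlapped between treatments at Esr1 and Nr3c1, and at Nr3c2 both forskolin ranks were higher by 2.22 on average. Esr1 and Esr2 each had 1 forskolin-only region within 100 kb. Neither of the 2 regions near Esrrb was called in both libraries of a treatment, and Esrrg and Pgr had no region.

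The orphan receptors, for which a physiological ligand is absent or debated, included the highest-scoring receptor promoter. Nr6a1, the germ cell nuclear factor gene, had a region at -179 bp (chromosome 2, 38781811 to 38782137, untranslated exon) at percentiles of 95.2 and 88.7 under vehicle and 96.1 and 95.4 under forskolin. It was the only receptor promoter region of all libraries with a full CRE. Nr2c1 and Nr2c2, the testicular receptors TR2 and TR4, were both lower in shared rank in both forskolin lists.

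At Nr2c1 (-138 bp, chromosome 10, 93610419 to 93610842, intergenic) percentiles were 73.7 and 69.1 against 76.1 and 64.3, and the shared-rank difference was -17.5. At Nr2c2 (-110 bp, chromosome 6, 92042150 to 92042484, intronic) they were 89.6 and 84.3 against 86.8 and 82.9, with a difference of -14.02. Nr2f6 had a region at 322 bp (chromosome 8, 73905323 to 73905643, untranslated exon) called in vehicle replicate 1 at percentile 45.1 and in the forskolin lists at 23.4 and 60.4. Its 2 regions of all libraries within 10 kb lay at the starts of Ocel1 and Use1, and that of Nr0b2, the small heterodimer partner gene, at the start of Nudc.

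Nr2f1 and Nr2f2, which encode the COUP-TF repressors, each had 1 forskolin-only region and no vehicle peak within 10 kb. At Nr2f1 it lay at -3855 bp (chromosome 13, 78342696 to 78343051, intergenic) at percentiles of 29.5 and 32.0. At Nr2f2 it lay at -1019 bp (chromosome 7, 77506303 to 77506694, intronic), just outside the promoter window, at 56.5 and 22.2. Both had low scores, and neither was forskolin-only in the top 50% of each list or in lists of equal length. Nr5a1 and Nr6a1 are neighbours on chromosome 2 and shared 4 regions within 100 kb, of which 2 were forskolin-only and nearest to the proteasome gene Psmb7.

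**Figure D4:**
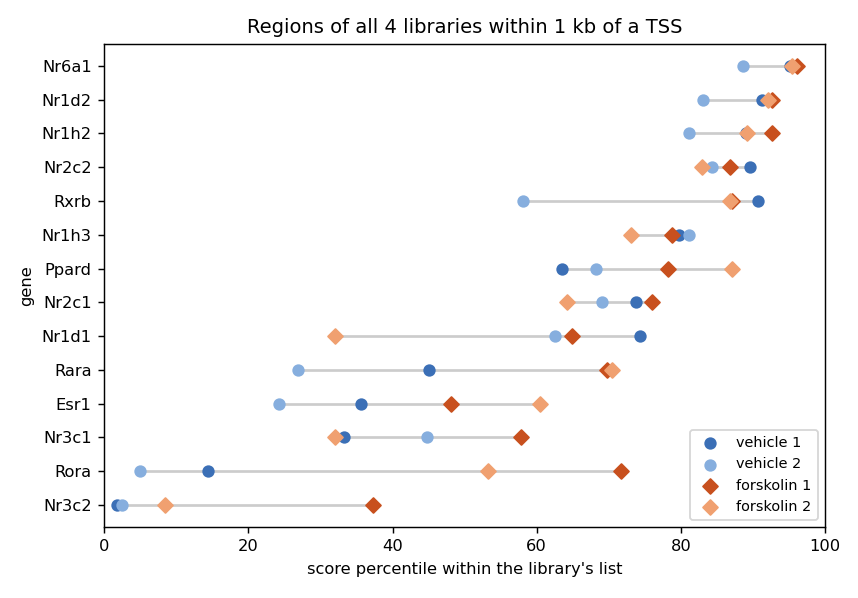
Score percentile within each library's list for the 14 receptor promoter regions called in all 4 libraries, with vehicle libraries as blue circles, forskolin libraries as orange diamonds and a grey line over the range. Nr6a1, Nr1d2 and Nr1h2 are high in every list, and 8 of the 14 genes, among them Rora, Rara, Ppard and Esr1, have both diamonds to the right of both circles. Lists differ in length, so these positions show no change by themselves, and at Nr1d1 forskolin replicate 2 lies far to the left.

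Receptors with a promoter region of all libraries had a median CpG ratio of 0.735, and those without had 0.678, against 0.786 and 0.394 over all genes. The CpG observed/expected ratio was computed within 500 bp of each TSS and the highest taken per gene. Among receptors at 0.6 or more, 12 of 29 (41.4%) had a promoter region of all libraries, against 53.8% of all genes at that ratio. Below 0.6 it was 2 of 12 (16.7%), Nr1d1 (0.447) and Nr1h3 (0.531), against 6.64%. The other 17 receptors at 0.6 or more had no such region, among them Nr2f1 (0.925), Nr5a1 (0.882), Thra (0.796) and Esrrg (0.787).

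Shared ranks did not move one way within 10 kb of receptor genes. Of the 23 regions of all libraries within 10 kb, 11 ranked higher and 12 lower under forskolin, with a median difference of -0.16 (range -38.5 to 74.5) against -3.35 over all genes. The median was 0.83 without forskolin replicate 1 and -3.05 without vehicle replicate 2. Both forskolin ranks lay above both vehicle ranks in 6 of the 23 (26.1%, against 18.4% of all 8930 shared regions). These were both Rora regions, Rara at -695 bp, Nr3c2, and the regions at the starts of Nudc and Ocel1. Both lay below in 7 (30.4%, against 31.3%): Nr1d1 at -111 and -8134 bp, Nr1h3, Nr2c1, Nr2c2, and the regions at the starts of Tomm40l and Use1. Within 100 kb, 12 of 97 lay above (12.4%, against 18.4%) and 41 of 97 below (42.3%, against 31.3%). Of these 97 regions, 33 ranked higher and 64 lower under forskolin, with a median difference of -2.76. Over all genes, 3142 regions within 100 kb ranked higher and 5366 lower, with a median of -2.52.

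**Figure D5:**
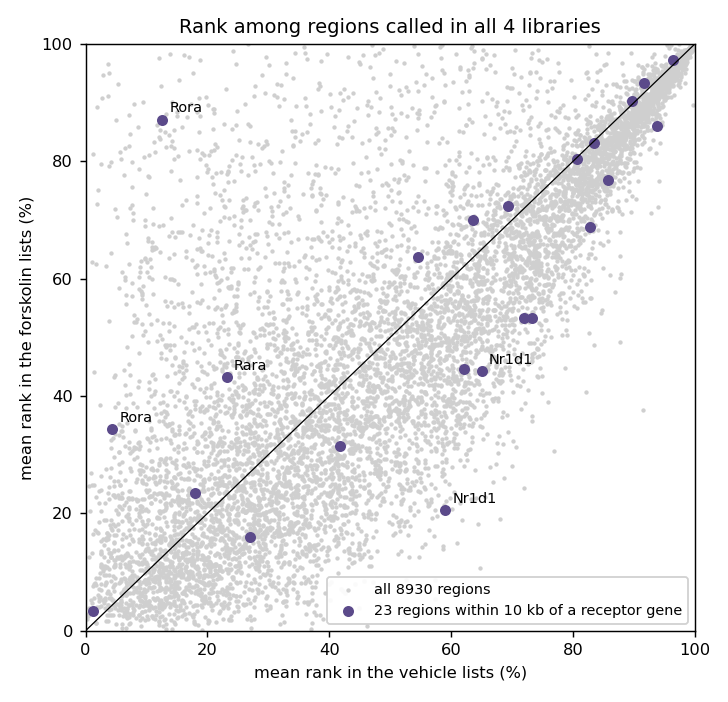
Mean shared rank in the forskolin lists against that in the vehicle lists (both in percent) for all 8930 regions of all 4 libraries (grey) and the 23 within 10 kb of a receptor TSS (purple), with the line of equal rank. Gene names mark shared-rank differences above 20 in size, with 2 Rora regions and 1 Rara region above the line and 2 Nr1d1 regions below it.

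A total of 217 regions lay within 100 kb of a receptor TSS, 97 of all libraries, 35 forskolin-only, 1 vehicle-only and 84 of other patterns. They made 235 pairs of gene and region, and the receptor was the nearest gene in 78 of them (14 of the 37 forskolin-only pairs). Within 10 kb it was nearest in 40 of 47. The number of forskolin-only regions was 55 without vehicle replicate 1 and 65 without forskolin replicate 2.

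The CRE core had about the same share of receptor regions as of all regions near genes. The full CRE had a larger share within 100 kb but not within 10 kb. The search covered both strands up to 100 bp to either side of a region's centre, and the CRE core is contained in the full CRE. The core was present in 73 of 217 regions (33.6%, Wilson 95% interval 27.7 to 40.2), against 29.7% of the 25340 regions within 100 kb of any gene. In forskolin-only regions it was present in 13 of 35 (37.1%, 23.2 to 53.7), against 38.7%. Within 10 kb the full CRE was found in 1 of 47 receptor regions (2.13%, 0.38 to 11.1), against 4.07%. Within 100 kb it was found in 14 of 217 (6.45%, 3.88 to 10.5), against 3.62%. By class it stood in 8 of 97 regions of all libraries (8.25%, against 6.80%), in 0 of 35 forskolin-only regions (against 3.41%) and in 6 of 84 of other patterns (7.14%, 3.31 to 14.7, against 1.53%). Several of these regions are nearer to another gene, and this share was not tested. Regions of all libraries with a core had a median shared-rank difference of -0.48 (44 regions), and those without had -5.88 (53 regions), beside -0.83 and -4.99 over all genes. The AP-1 site TGAGTCA stood in 20 of 217 regions (9.22%, 6.05 to 13.8), against 13.1%. By class it stood in 3 of 35 forskolin-only regions (8.57%, 2.96 to 22.4), against 21.6%. It stood in 4 of 97 regions of all libraries (4.12%, against 5.59%) and in 13 of 84 of other patterns (15.48%, against 15.25%). Within 10 kb it stood in 0 of 47 receptor regions of any class, against 8.04%. AGGTCA, the hexamer bound by many receptors, was found in 21 of 217 (9.68%), against 10.5%, and at Rara the region at -8773 bp held it. A match describes letters only.

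Lists of genes that act with the receptors were counted the same way, coregulators and genes of ligand supply. Among 24 coregulators, which bridge receptors to chromatin enzymes, 10 had a promoter region of all libraries (41.7%, against 30.4% of all genes) and 5 had a forskolin-only region within 10 kb (20.8%, against 8.88%), among them Ncoa7, Pprc1, Hdac3 and Kdm1a. Among 25 genes of ligand metabolism and transport, 3 had a promoter region of all libraries (12.0%, against 30.4%) and 5 a forskolin-only region within 10 kb (5 of 25, against 8.88%): Aldh1a3, Dhrs3, Cyp26b1, Crabp2 and Dio1. The first 4 make, reduce, degrade or carry retinoids, and Dio1 is a thyroid hormone deiodinase. At Dhrs3, a retinaldehyde reductase, the region at -9529 bp reached percentiles of 98.4 and 94.2 and held a CRE core, higher than any forskolin-only region near a receptor.

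The 4 receptors set apart, Nr4a1, Nr4a2, Nr4a3 and Vdr, were each occupied in every library within 10 kb (37.5% of all genes) and each had a forskolin-only region within 100 kb (39.7%), with none of the latter within 1 kb (3.11%). Nr4a2 had a vehicle-only region 484 bp from a TSS, at percentiles of 39.8 and 21.2. Their highest shared-rank difference, 72.5 at -6286 bp from Nr4a1, was close to the 74.5 at Rora. At Vdr the region at -3859 bp stood at percentiles of 73.7 and 71.3 under vehicle and 99.9 and 99.5 under forskolin, above every forskolin value within 10 kb of the 41 receptors.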

How the data were processed

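Phospho-CREB libraries of 2 vehicle and 2 forskolin samples of MC3T3-E1 cells were grouped by their titles. The authors deposited 1 peak list per library with a position and a score per peak. The scale of the score is not stated, so it was used only to rank. Peaks were called per library, with Bowtie, HOMER and mm9 named per the submitters' processing notes. The sources used here do not give versions or thresholds, and an input library of another series was not used here. The lists hold no read totals, so the depth is unknown, and intervals cover counting error only.

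Lists were merged where peaks shared at least 1 bp. Percentiles are mean ranks of the score. The reference was NCBIM37 with GENCODE M1, which is the same build as mm9, and no region ran past the end of a chromosome. Sequences come from that genome. Genes were scored within 1, 10 and 100 kb of any TSS of a protein-coding transcript, so a region can belong to several genes. A longer gene with more start sites has more chances of a region. No gene list was tested, since the members were chosen by family. The one test was an exact permutation test of a count per library. Where replicates differ only in technique, its p-value measures that spread alone.

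Values in every library are given for regions within 1 kb of a TSS called in at least 2 libraries, and for forskolin-only regions within 10 kb. The same was planned for forskolin-only regions within 100 kb at a percentile of 90 or more in both forskolin lists, and there were none. Other regions named were chosen after their values were seen. The members and lists were chosen with earlier results of these data known. Other genes of the pathway were counted, and named where they had a forskolin-only region within 10 kb, except a gene that is not reported here. Of 5 haematopoietic or osteoclast markers, 4 matched a gene symbol. On simulated lists, 5000 of 5000 regions and 500 of 500 gene distances were recovered. Analyses used Python 3.11.15, numpy 2.4.6, pandas 2.3.3 and scipy 1.17.1, and figures matplotlib 3.10.9.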

Additional observations from a re-analysis of the deposited data

How the results depend on the processing

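Lists of different length and coarse ties limit every count, and a region absent from a list may lie just under a threshold. The number of receptors with a region of all libraries within 10 kb kept within 1.5 times of 17 in every alternative that counted it. Assignment to the nearest gene was evaluated at 100 kb only. Over all values, 144 of 191 comparisons stayed the same by the rule for their kind. Counts had to stay within 1.5 times and the library difference had to keep its sign. The CRE share had to stay within its interval, and rank differences within the SD of the libraries. The replicate block was entered as the same without applying a rule. Where a named Rora or Nr1d1 region was no longer one of all 4 libraries, its comparison was left out of the 191 and not counted as changed. The tally of 144 therefore leaves those losses out. With the top 50% of each list, receptors with a forskolin-only region numbered 2 within 1 kb (2.36% of all genes) and 3 within 10 kb (5.61%). Those with a region of all libraries within 1 kb numbered 8 (18.7%), vehicle-only regions stood near 0 receptors (1.21%), and 19 regions were forskolin-only. The median shared-rank difference turned to 2.18. In lists of equal length, forskolin-only regions were found at 2 receptors within 10 kb (2.57% of all genes) and 7 within 100 kb (14.9%), the latter with 10 regions, 60.0% of them with a CRE core. Vehicle-only regions stood near 5 (17.8%), promoter regions of all libraries at 9 (22.5%), and the difference in receptors with a peak turned to -1.0. The all-gene shares moved with these counts. The cause was not tested. Counting from 1 TSS a gene gave 9 promoters with a region of all libraries (28.6% of all genes) and no forskolin-only region for Rora within 10 kb. Measured to a region's nearest edge, 1 receptor had a forskolin-only region within 1 kb. Assigning each region to its nearest gene left 8 receptors (14.2% of all genes) and 14 regions forskolin-only, 0 vehicle-only (0.522%) and 19 of all libraries (32.6%) within 100 kb. Joining across 500 bp left 0 vehicle-only. The full CRE in place of its core stood in 0.0% of forskolin-only regions.

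The class rule is looser with 1 library fewer. Receptors with a forskolin-only region then ran from 1 to 2 within 1 kb (3.86% to 7.68% of all genes). They ran from 5 to 9 within 10 kb (10.1% to 17.6%) and from 19 to 25 within 100 kb (42.5% to 59.8%). Receptors with a vehicle-only region within 100 kb ran from 1 to 5 (3.50% to 12.1% of all genes). Forskolin-only regions ran from 42 to 65, and the median shared-rank difference from -3.05 to 0.83. With the replicate number as a block, the difference in receptors with a peak was again 4.5 (exact sign-flip permutation p = 0.5, the smallest 2 pairs allow), and nothing in the labels says that equal numbers share a culture.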
